A study of Homo sapiens with 4 samples.

Results

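The genes of the YAP and TEAD pathway described here are the transcriptional coactivators *YAP1* and *WWTR1* (which encodes TAZ), the 4 genes of their DNA-binding partners *TEAD1*, *TEAD2*, *TEAD3*, and *TEAD4*, and the target genes *CCN1*, *CCN2*, *ANKRD1*, and *AMOTL2*. They were taken by name from the table of gene counts, which held all 10 of them among 18449 gene symbols. Their RNA was measured in BT-16 and CHLA-266, 2 established patient-derived cell lines of the MYC subtype of atypical teratoid/rhabdoid tumor (AT/RT-MYC), grown in serum-containing medium. Untreated cells of each cell line were compared with cells that had received 1 µM doxorubicin and 5 µM etoposide, which block topoisomerase II, and 1 µM vincristine, which blocks microtubule assembly, on consecutive days. Per the study's methods, most cells died and the treated libraries come from the resistant cells that grew again. Each cell line gave 1 library per condition (n = 2 libraries per condition), so the cell lines are the replicates. A treated library thus holds 1 regrown population of a cell line, and in RNA of whole cultures a change in which cells are present cannot be told apart from a change within each cell.

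YAP and TAZ carry the output of the Hippo pathway. Its kinases, the MST kinases and the LATS kinases, phosphorylate YAP and TAZ and keep them out of the nucleus, and this brake is released when cells spread, lose contact with their neighbors, or are stretched. In the nucleus, YAP and TAZ bind TEAD proteins, which recognize DNA but need a coactivator, and drive genes of matrix, adhesion, and growth. Since much of this control acts on proteins, RNA levels of *YAP1* and *WWTR1* do not measure how active YAP and TAZ are.

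Total counts ranged from 49849258 to 75087194 per library, with less depth after treatment than before it. The RNA of *SMARCB1*, the gene inactivated in most AT/RT, was counted in all 4 libraries (827 to 1394 counts), which does not show whether an intact protein is made. *SMARCA4* had 29429 to 59447 counts and narrowly passed as lower after treatment (log2 fold change -0.56, edgeR adjusted *p* = 0.0498). In untreated BT-16 and CHLA-266 cells, the 10 markers of blood, vessel, connective tissue, and epithelial cells summed to 19.0 and 12.0 CPM (counts relative to the TMM-scaled library total). In treated cells they summed to 31.5 and 15.3 CPM. The macrophage marker *CD68* had at most 3 counts. The leukocyte marker *PTPRC* had 287 counts before and 167 after treatment in BT-16, with 30 before and 64 after in CHLA-266. Of the 10, *VWF*, an endothelial gene, passed as higher after treatment (45 to 405 counts in BT-16 and 40 to 216 in CHLA-266). *COL1A2*, a collagen gene, passed as lower (408 to 103 and 412 to 49). The other connective tissue markers *COL1A1*, *DCN*, and *PDGFRB* went the other way (log2 fold changes 0.92, 0.88, and 1.84) and did not pass. Nor did the epithelial marker *KRT14* (0 to 122 and 16 to 35 counts). Over all genes, 16.1% were higher and 19.1% lower by this rule. With cell line also in the model, 3 markers were higher and 1 lower, against 17.9% and 23.7%. The part of such cells in the results below was not tested. Counts of olfactory receptor genes, which such cells should not use, summed to 7.10 CPM in untreated and 94.0 CPM in treated BT-16 cells and to 8.37 and 68.8 CPM in CHLA-266 cells. Since these were higher after treatment as well, genes of low counts are set beside them below.

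Of the 10 genes, *WWTR1*, *CCN2*, and *ANKRD1* were upregulated after treatment, *TEAD4* and *AMOTL2* were downregulated, and *YAP1*, *TEAD1*, *TEAD2*, *TEAD3*, and *CCN1* did not pass the threshold, set at 0.05 for the adjusted *p* value of the quasi-likelihood test of edgeR. The background was high, since 16.1% of the 18066 genes tested were higher and 19.1% lower by the same rule. The 3 higher and 2 lower among 10 genes are therefore not read as an excess. The median log2 fold change was 0.10 over the 10 genes and 0.24 over all genes tested. When edgeR was blocked on cell line, *TEAD1* and *TEAD3* also passed, which made 5 genes higher and 2 lower, against a background of 17.9% higher and 23.7% lower. With upper-quartile normalization, 5 of the 10 genes were higher and 1 lower, against 4361 higher and 1895 lower of the 18066 genes tested. The higher share of all calls went from 45.7% to 69.7%. Each of the 10 genes had ratios of the same sign in both cell lines with TMM scaling and with the size factors of DESeq2. Over all genes tested, 15.4% had ratios of opposite sign with TMM scaling, so the shared sign is not read as particular to the 10. With upper-quartile scaling *YAP1* and *TEAD2*, and with library totals *CCN1*, had ratios close to 0 and of opposite sign in the cell lines.

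**Figure D1:**
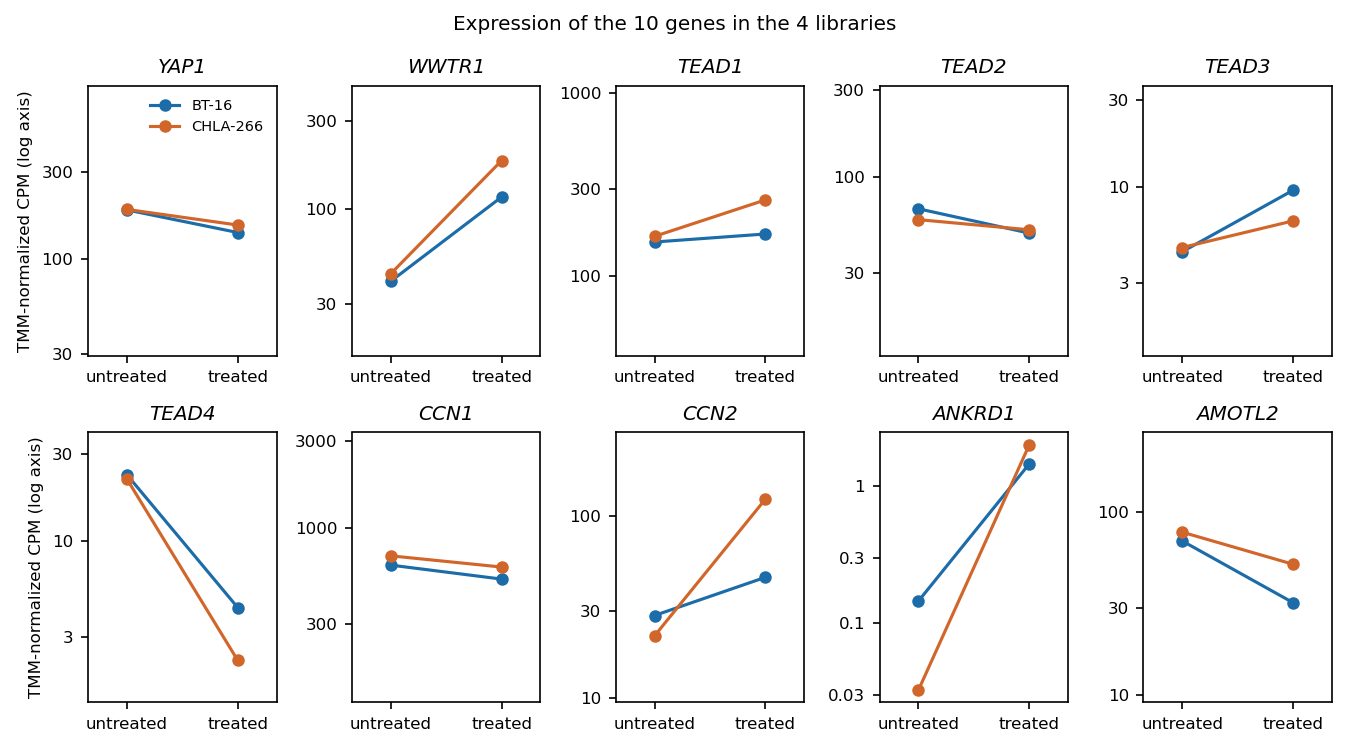
Level of each gene in the 4 libraries, in CPM after TMM normalization on log axes of equal span except for *ANKRD1*, with 1 point per library and a line joining the untreated and treated library of a cell line. *WWTR1*, *CCN2*, and *ANKRD1* are higher and *TEAD4* and *AMOTL2* lower in both treated libraries than in both untreated ones, while *CCN1* stays between 527 and 707 CPM.

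*WWTR1* was the coactivator gene that changed. It lies on chromosome 3 of hg38 (149517235 to 149736714, minus strand) and encodes TAZ, the paralog of YAP. It had 2757 counts before and 6686 after treatment in BT-16, with 2703 before and 9509 after in CHLA-266. In CPM, BT-16 had 40.0 before and 116 after treatment and CHLA-266 had 43.9 and 183. Both treated libraries lay far above both untreated libraries, which differed little from each other. Its log2 fold change was 1.83 (standard error, SE, 0.23, edgeR adjusted *p* = 0.000654), and it stayed past the threshold in all 14 alternatives, with values from 1.47 to 2.17. Within the cell lines, the log2 ratio of normalized counts, treated over untreated, was 1.53 for BT-16 (95% interval 1.47 to 1.60, exact by the Clopper-Pearson method and for counting error only) and 2.06 in CHLA-266 (1.997 to 2.12). The long noncoding RNA WWTR1-AS1 overlaps the gene on the opposite strand, and since the methods do not state whether strand was used in counting, its reads could not be told apart.

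*YAP1* (chromosome 11, 102110447 to 102233424, plus strand) encodes the better known coactivator of the pair. It had 185 CPM before and 139 after treatment in BT-16, with 186 before and 153 after in CHLA-266. Both treated libraries were thus below both untreated libraries. Its log2 fold change of -0.35 (SE 0.16, edgeR adjusted *p* = 0.113) did not pass the threshold, nor did it in any of 14 alternatives, in which the adjusted *p* ranged from 0.0544 to 1.00. With upper-quartile normalization its value was close to 0.

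Levels of different genes can be compared only per length, here as counts per kilobase of all annotated exons. On this scale, *YAP1* stood 6.13 times above *WWTR1* before and 1.59 times after treatment in BT-16, against 5.62 before and 1.11 times after it in CHLA-266. *WWTR1* made up 14.0% and 15.1% of the sum of both genes before treatment and 38.6% and 47.5% after it. *WWTR1* thus held a larger part of the pair in both treated libraries, and the more so in CHLA-266. With the length of the canonical transcript, the ratios were 4.32 and 1.12 for BT-16 against 3.96 and 0.780 for CHLA-266, so which of the genes was the more abundant in treated CHLA-266 cells depended on the length used. With 2 libraries against 2, an exact permutation test cannot reach a two-sided *p* under 0.05, and these shares were not tested.

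Among the DNA-binding partners, *TEAD4* fell and was the gene with the largest decrease of the 10. *TEAD4* (chromosome 12, 2959330 to 3040676, plus strand) had 1599 counts before and 251 after treatment in BT-16, with 1353 before and 116 after in CHLA-266. Normalized, these were 23.2 and 4.34 CPM for BT-16 against 21.98 and 2.23 CPM for CHLA-266. The untreated libraries were nearly equal and the treated libraries far below them. The fitted change was -2.78 on the log2 scale (SE 0.35, edgeR adjusted *p* = 0.000659), past the threshold in all 14 alternatives. The log2 ratio was -2.41 in BT-16 (95% interval -2.61 to -2.22) and -3.29 in CHLA-266 (-3.59 to -3.03).

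The other TEAD genes differed in direction. *TEAD1* (chromosome 11, 12674421 to 12944737, plus strand) had 154 CPM before and 170 after treatment in BT-16, with 165 before and 261 after in CHLA-266. Treated CHLA-266 cells stood out, and the 2 treated libraries differed from each other more than the untreated ones. For both cell lines together, the log2 fold change was 0.44 (SE 0.21, edgeR adjusted *p* = 0.142), and 0.40 (SE 0.15, edgeR adjusted *p* = 0.0337) in the model blocked on cell line. It was 0.10 without treated CHLA-266 cells and 0.71 without treated BT-16 cells (adjusted *p* = 0.735 and 0.00522 in edgeR), so the size rests on which treated library is used.

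*TEAD3* (chromosome 6, 35473597 to 35497079, minus strand) was the least abundant TEAD gene before treatment. It had 305 counts before and 555 after treatment in BT-16, with 287 before and 339 after in CHLA-266, which was 4.42 and 9.60 CPM and 4.66 and 6.52 CPM. The treated libraries were again the higher ones. Its log2 fold change was 0.83 (SE 0.34, edgeR adjusted *p* = 0.0883), and 0.80 (SE 0.32, edgeR adjusted *p* = 0.0471) in the model blocked on cell line. In DESeq2 it passed without the block (adjusted *p* = 0.0476) and not with it (0.87, adjusted *p* = 0.102).

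*TEAD2* (chromosome 19, 49340595 to 49362457, minus strand) had 67.2 CPM before and 49.4 after treatment in BT-16, with 58.6 before and 51.5 after in CHLA-266. The groups did not overlap, but the gap was small, and the log2 fold change of -0.32 (SE 0.16, edgeR adjusted *p* = 0.152) turned to 0.03 with upper-quartile normalization. *CD37* and *DKKL1* overlap this gene on the opposite strand.

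Set against each other per kilobase of exon, the 4 TEAD genes changed their proportions. *TEAD4* made up 21.0% of TEAD counts before and 5.08% after treatment in BT-16, against 20.9% before and 2.19% after it in CHLA-266. *TEAD1* made up 29.6% and 42.4% for BT-16 against 33.4% and 54.5% for CHLA-266. The treated cells thus held more *TEAD1* and less *TEAD4* per TEAD transcript in both cell lines. *TEAD2* had shares of 46.4% and 44.2% for BT-16 against 42.5% and 38.6% for CHLA-266, and *TEAD3* had at most 8.39%. With the canonical transcript, the shares of *TEAD1* were 26.2%, 38.8%, 29.8%, and 50.5% in the same order of libraries, and those of *TEAD4* were 21.8%, 5.45%, 21.8%, and 2.38%. The summed level of all 4 genes, in TPM (counts per length as a part of the whole library), was 182 and 149 for BT-16 against 170 and 179 for CHLA-266.

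**Figure D2:**
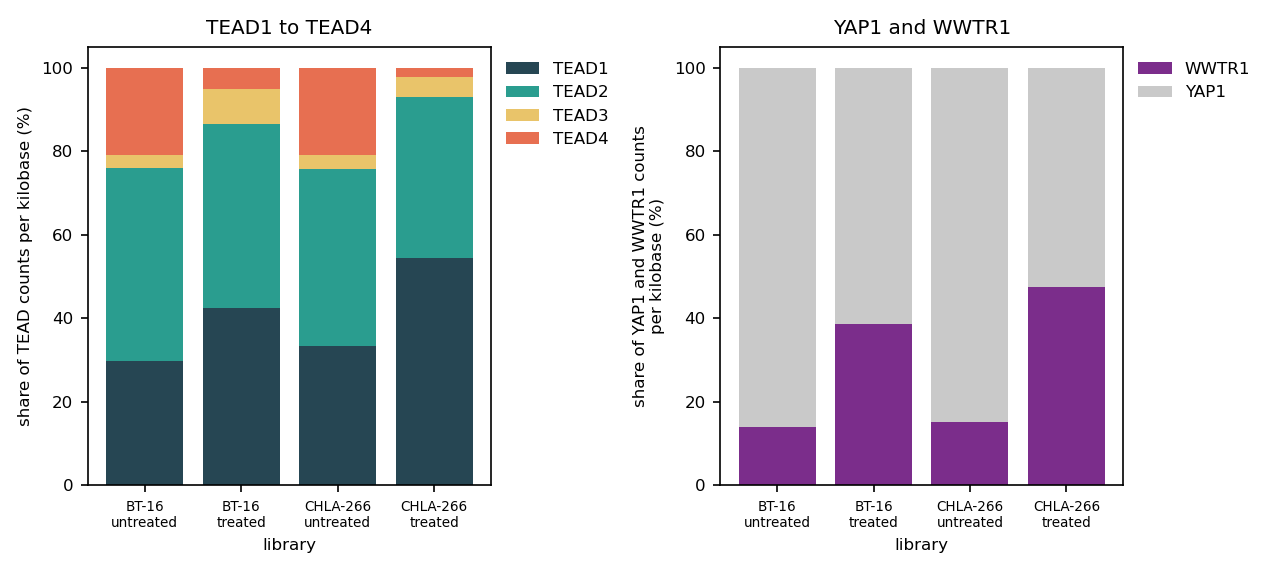
Share of each TEAD gene among the 4 TEAD genes (left) and of *WWTR1* and *YAP1* among both (right), in percent of their counts per kilobase of exon, with 1 bar per library. In the treated libraries *TEAD4* shrinks to 5.08% and 2.19% and *WWTR1* grows to 38.6% and 47.5%.

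The target genes did not move as a group, since *CCN2* and *ANKRD1* rose, *AMOTL2* fell, and *CCN1* did not pass. RefSeq sequences of the 250 bases before the gene start (GRCh38.p14) were searched for GGAATG and its reverse complement CATTCC, the core that TEAD proteins bind. Windows were at hand for 7 of the 10 genes, not for *CCN1*, *TEAD1*, and *TEAD4*. The sequences of *CCN2*, *ANKRD1*, and of the start of *AMOTL2* that held a match are shown 5′ to 3′ on the strand of the gene, ending at the base before its start, because these are the target genes that changed. Capitals mark the matches.
CCN2 (chr6:131951373-131951622, minus strand): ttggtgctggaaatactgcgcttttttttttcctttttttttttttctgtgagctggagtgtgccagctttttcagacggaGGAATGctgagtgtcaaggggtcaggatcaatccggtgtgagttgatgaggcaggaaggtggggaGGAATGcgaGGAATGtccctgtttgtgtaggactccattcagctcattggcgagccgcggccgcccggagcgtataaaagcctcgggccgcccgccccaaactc
ANKRD1 (chr10:90921088-90921337, minus strand): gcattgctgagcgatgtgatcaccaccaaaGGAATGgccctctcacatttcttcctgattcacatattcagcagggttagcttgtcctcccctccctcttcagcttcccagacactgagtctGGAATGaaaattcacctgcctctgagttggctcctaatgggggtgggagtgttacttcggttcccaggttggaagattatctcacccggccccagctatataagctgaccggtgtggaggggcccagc
AMOTL2 (chr3:134374448-134374697, minus strand): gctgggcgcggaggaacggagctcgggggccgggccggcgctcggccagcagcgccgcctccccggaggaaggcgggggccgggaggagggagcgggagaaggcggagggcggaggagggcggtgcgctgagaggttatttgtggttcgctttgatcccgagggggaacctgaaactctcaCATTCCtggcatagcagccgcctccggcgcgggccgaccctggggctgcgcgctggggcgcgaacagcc

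*CCN2* held 3 matches, which began 169, 104, and 95 bases before the start. *ANKRD1* held 2, at 220 and 128 bases, and *AMOTL2* held 1, at 69 bases, while a further annotated start of *AMOTL2* had none. Of 35116 windows of the same length, 11.9% held at least 1 match, 0.940% at least 2, and 0.0826% at least 3. The fallen gene *AMOTL2* thus also held a match, as did *YAP1* (1 match, 162 bases before the start), while both windows of *WWTR1*, both of *TEAD2*, and that of *TEAD3* held none. TGANTCA, the site of AP-1 factors, was found once in *ANKRD1* and in 6.57% of all windows, and the CArG box of SRF in no window of these genes and in 1.16% of all. No match overlapped another. A match shows only that the letters are there, and binding was not measured.

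*CCN2* (chromosome 6, 131948176 to 131951372, minus strand), also known as CTGF, encodes a secreted matrix protein and is among the best known targets of YAP and TAZ. It had 1962 counts before and 2661 after treatment in BT-16, with 1355 before and 6410 after in CHLA-266, or 28.4 and 46.03 CPM and 22.01 and 123 CPM. Treated CHLA-266 cells stood far above the other libraries, and treated BT-16 cells lay closer to the untreated ones. Its log2 fold change was 1.75 (SE 0.39, edgeR adjusted *p* = 0.0100). The log2 ratio was 0.69 in BT-16 (95% interval 0.61 to 0.78) and 2.49 in CHLA-266 (2.40 to 2.57). Without treated CHLA-266 cells the log2 fold change dropped to 0.88 and remained past the threshold (adjusted *p* = 0.00260 in edgeR), so the size rests mostly on that library. Whether the response differed between the cell lines could not be tested, because each gave 1 library per condition. The counting intervals of the cell lines did not overlap for any of the 10 genes but *ANKRD1*, nor, with all counts halved, for any but *ANKRD1* and *CCN1*. The share of all genes with such intervals was not computed, so this is not read as particular to these genes. The noncoding RNA LINC01013 overlaps *CCN2* on the opposite strand.

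*ANKRD1* (chromosome 10, 90912096 to 90921087, minus strand) encodes an ankyrin repeat protein first known from heart muscle and is a frequent readout of YAP and TAZ. It was the rarest of the 10 genes before treatment, with 10 counts before and 84 after treatment in BT-16, and with 2 before and 104 after in CHLA-266. These were 0.145 and 1.45 CPM for BT-16 against 0.0325 and 2.001 CPM for CHLA-266. It was higher in both treated libraries, from a level near the limit of detection. This was a log2 fold change of 4.24 (SE 0.96, edgeR adjusted *p* = 0.0103), with values from 3.56 to 5.64 when 1 library was left out. In the other alternatives the value ranged from 0.96 in limma on VST values to 4.58 with upper-quartile normalization, so the size depended on the method. The log2 ratio was 3.26 in BT-16 (95% interval 2.38 to 4.44) and 5.63 in CHLA-266 (4.06 to 9.01), and the intervals of the cell lines overlapped. Its counts per kilobase of exon are set beside the 95th percentile of 380 olfactory receptor genes. They were 46.9 against 26.3 in treated BT-16 cells and 58.1 against 21.2 in treated CHLA-266 cells, so *ANKRD1* lay above that level in both. Before treatment they were 5.59 against 4.11 in BT-16, already above that level, and 1.12 against 3.81 in CHLA-266. Among these receptor genes, *ANKRD1* went from percentile 97.4 to 97.6 in BT-16 and from 84.2 to 99.5 in CHLA-266. Whether its increase exceeded that of olfactory receptor genes was not tested.

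*AMOTL2* (chromosome 3, 134355347 to 134375479, minus strand) encodes a protein of the angiomotin family, which is induced by YAP and TAZ and in turn holds them in the cytoplasm. It had 4793 counts before and 1845 after treatment in BT-16, with 4779 before and 2693 after in CHLA-266, or 69.5 and 31.9 CPM and 77.6 and 51.8 CPM. Both treated libraries were lower, treated BT-16 cells the most. The log2 fold change was -0.81 (SE 0.23, edgeR adjusted *p* = 0.0258), with a log2 ratio of -1.12 in BT-16 (95% interval -1.20 to -1.04) and -0.58 in CHLA-266 (-0.65 to -0.51). This call was lost without treated BT-16 cells (-0.51 on the log2 scale, edgeR adjusted *p* = 0.0822) and without untreated CHLA-266 cells (-0.73, adjusted *p* = 0.0922). It was also lost in edgeR with upper-quartile normalization (-0.47, adjusted *p* = 0.118), with library totals (-0.60, 0.0574), and with the filter on 10 counts in every library (-0.64, 0.0640). The pseudogene RPL39P5 lies within the gene on the same strand.

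*CCN1* (chromosome 1, 85580761 to 85584589, plus strand), also known as CYR61, encodes a secreted matrix protein of the same family as *CCN2*. It was the most abundant of the 10 genes, with 43364 counts before and 30467 after treatment in BT-16, and with 43494 before and 31880 after in CHLA-266. After normalization, BT-16 had 629 before and 527 CPM after treatment and CHLA-266 had 707 and 613. In contrast to *CCN2*, the treated libraries were slightly below the untreated one of the same cell line. The log2 fold change of -0.23 (SE 0.17, edgeR adjusted *p* = 0.320) was 0.12 with upper-quartile normalization, so its direction depended on the scaling.

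**Figure D3:**
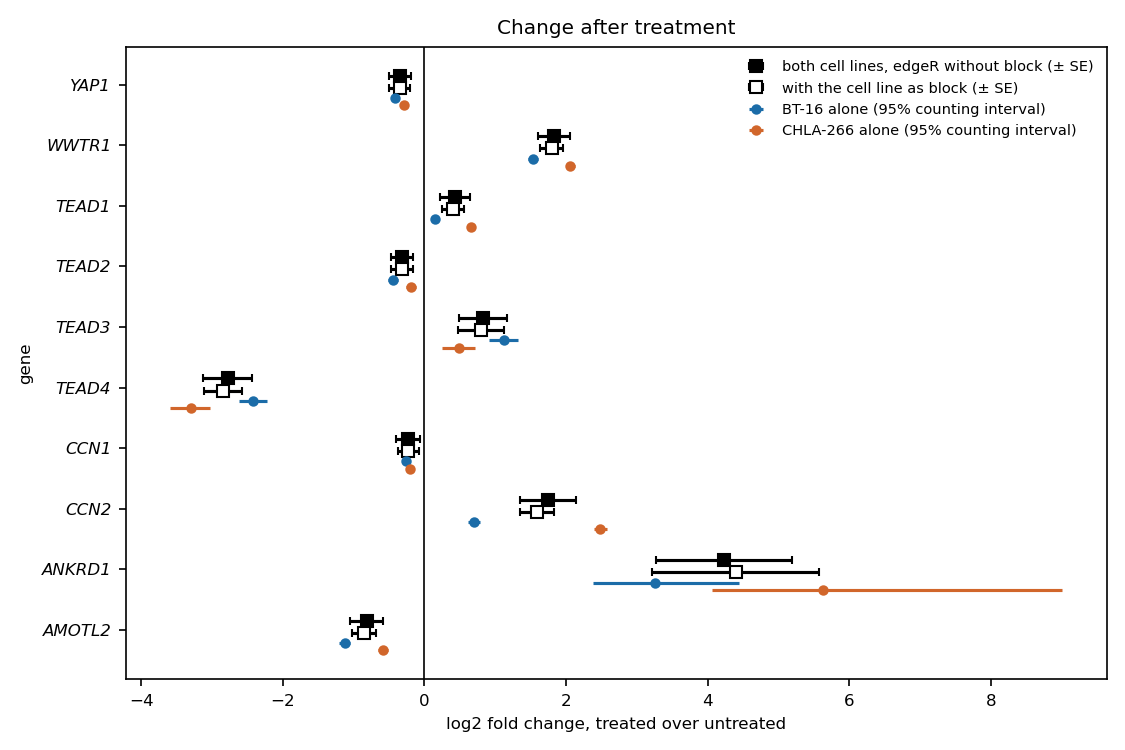
Log2 fold change of treated over untreated cells for each gene from edgeR without (filled squares) and with a block for cell line (open squares), with standard errors, and the log2 ratio within each cell line (circles) with 95% counting intervals. The values of the cell lines lie on the same side of 0 for every gene with TMM scaling, and are farthest apart for *ANKRD1* and *CCN2*. Over all genes tested, 15.4% had ratios of opposite sign.

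In TPM, the order of levels in untreated cells was *CCN1* (637 and 703 in BT-16 and CHLA-266), *YAP1* (110 and 109), *TEAD2* (84.5 and 72.3), and *TEAD1* (53.9 and 56.8). Then came *CCN2* (45.6 and 34.6), *AMOTL2* (40.2 and 44.1), and *TEAD4* (38.2 and 35.5), followed by *WWTR1* (17.9 and 19.3), *TEAD3* (5.43 and 5.63), and *ANKRD1* (0.303 and 0.0668). The range of *CCN2* overlapped those of *AMOTL2* and *TEAD4*, and the other neighbors did not overlap. After treatment, *CCN1* was still the highest (567 and 661) and *ANKRD1* the lowest of the 10 on average (3.23 and 4.46), though its range overlapped that of *TEAD4* (7.60 and 3.91). *CCN2* (78.4 and 210), *YAP1* (87.9 and 96.7), *TEAD1* (63.3 and 97.4), *WWTR1* (55.1 and 87.3), and *TEAD2* (66.0 and 68.9) had ranges that overlapped at least 1 other gene of these. Among all genes with an exon length, *WWTR1* went from percentile 62.3 to 86.6 in BT-16 and from 64.9 to 91.3 in CHLA-266, and *TEAD4* from 76.6 to 52.6 and from 76.1 to 45.6.

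Between the cell lines, with treatment in the model, 0 of the 10 genes passed the same threshold in edgeR, against 2.3% of all genes tested. At an unadjusted *p* under 0.05, 4 genes differed in edgeR, 3 in DESeq2, and 0 in limma on the VST values. The share of all genes at this unadjusted threshold was not computed, so these counts are not read as an excess. The 4 were *WWTR1*, *TEAD1*, *CCN2*, and *AMOTL2*, with log2 differences (BT-16 minus CHLA-266) of -0.40, -0.36, -0.53, and -0.43. These are 1 value for both conditions. *CCN2* was higher in BT-16 than in CHLA-266 before treatment (28.4 against 22.01 CPM) and lower only after it (46.03 against 123 CPM). *WWTR1*, *TEAD1*, and *AMOTL2* were lower in BT-16 in both conditions, and by less before treatment than after it. *CCN2* passed in 1 of 9 alternatives, edgeR with the size factors of DESeq2 (adjusted *p* = 0.0303).

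Upstream of YAP and TAZ, 27 genes of the Hippo pathway were examined, of which 6 were upregulated, 8 downregulated, and 13 did not pass the threshold in edgeR, against 16.1% higher and 19.1% lower over all genes. Their median log2 fold change was -0.05, against 0.24 over all genes. *MOB1A*, which encodes an activator of the LATS kinases, had a log2 fold change of -0.76 (SE 0.15, adjusted *p* = 0.00665), going from 10215 to 5058 counts in BT-16 cells, and in CHLA-266 from 9504 to 4746. *WTIP*, a LIM protein that binds LATS, had -1.54 (SE 0.21), *WWC2*, a relative of the scaffold KIBRA, had -1.36 (SE 0.28), and *RASSF1*, a partner of the MST kinases, had -0.98 (SE 0.25). The kinase gene *LATS1* and the scaffold gene *SAV1* were among the 8 as well, named here after their values were seen, with -0.69 and -0.64. The kinase genes *LATS2* (-0.12), *STK3* (0.05), and *STK4* (-0.31), likewise named after their values were seen, did not pass, and the first and second had ratios of opposite sign in the cell lines. *MOB1B*, the paralog of *MOB1A*, also named after its values were seen, did not pass either, with ratios of 0.20 and 0.19 in BT-16 and CHLA-266. Neither did *MAP4K4* (0.24), the most abundant gene of the list that missed the threshold. With upper-quartile normalization, 10 genes of the list were higher and 2 lower, against 4361 higher and 1895 lower of the 18066 genes tested.

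Among the genes of the list that passed, the 4 with the largest increases had few counts before treatment. *FAT4* and *DCHS1* encode the large protocadherins that bind each other between cells. *FAT4* went from 58 to 748 counts in BT-16 cells, and in CHLA-266 from 64 to 227, which gave a log2 fold change of 3.20 (SE 0.56, edgeR adjusted *p* = 0.00346), and *DCHS1* had 11 and 135 and 20 and 153 counts, with 3.44 (SE 0.69). *AMOTL1*, of the angiomotin family like *AMOTL2* but opposite in direction, had 14 and 148 and 19 and 140 counts (log2 fold change 3.35, SE 0.65). *VGLL3*, whose product binds TEAD proteins in place of YAP, had 8 and 54 and 6 and 114 counts (3.84, SE 0.91). These 4 genes had 4.24 to 35.2 counts per kilobase in the treated libraries, where the 95th percentile of olfactory receptors was 26.3 and 21.2, and none of them lay above it in both. Of the 6 upregulated genes, 2 did, namely *FAT1* and, named after its values were seen, *TAOK3*. *FAT1*, an abundant protocadherin gene named here after its values were seen, went from 13523 to 15466 counts in BT-16 cells, and in CHLA-266 from 4707 to 55261, so its log2 fold change of 2.29 (SE 0.61) came mostly from CHLA-266, as for *CCN2*.

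A list of 18 further YAP/TAZ targets was written from general knowledge, and it shares *LATS2* and *PTPN14* with the regulators. Of these, 4 were upregulated, 0 were downregulated, and 14 did not pass in edgeR, against 16.1% higher and 19.1% lower over all genes. Their median log2 fold change was 0.50, against 0.24 over all genes. At an unadjusted *p* under 0.05, 1 was lower in edgeR. At the adjusted threshold, DESeq2 and limma called 0 lower, as edgeR did. With the cell line as a block, 6 were higher and 2 lower (17.9% and 23.7% over all genes). DESeq2 called 7 higher both with and without the block, against 3710 and 4046 of the 18066 genes tested. *IGFBP3*, an insulin-like growth factor binding protein, went from 1839 to 6125 counts in BT-16 cells, and in CHLA-266 from 1046 to 6263. With a log2 fold change of 2.37 (SE 0.23, edgeR adjusted *p* = 0.000180), it was the clearest of them. *NT5E*, the ectoenzyme CD73, was higher in treated cells, with 92 and 160 counts in BT-16 against 70 and 238 in CHLA-266 (1.57, SE 0.50, on the log2 scale). *FOXF2*, a transcription factor gene, went from 6 to 100 counts in BT-16 cells, and in CHLA-266 from 16 to 43 (2.88, SE 0.97), and *RBMS3*, an RNA-binding protein gene, had 9 and 132 and 4 and 14 counts (3.67, SE 1.22). With the block, the adjusted *p* was 0.0634 for *FOXF2* and 0.0557 for *RBMS3*. Of the 4 genes, *IGFBP3* and *NT5E* lay above the 95th percentile of olfactory receptors per kilobase in both treated libraries. *MYOF*, the most abundant target that did not pass, went from 18724 to 33464 counts in BT-16 cells, and in CHLA-266 from 30504 to 36398 (0.74 on the log2 scale, edgeR adjusted *p* = 0.0619, or 0.000133 with the block).

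*CCN1*, *CCN2*, and *ANKRD1* also answer to the actin-regulated factor SRF, so 14 genes of SRF and actin were set beside them, of which 13 were in the table and *FLNA* was not analysed here. In edgeR, 2 were upregulated, 2 downregulated, and 9 did not pass, against 16.1% higher and 19.1% lower over all genes. Their median log2 fold change was 0.18. *SRF* itself was lower, going from 4400 to 1395 counts in BT-16 cells, and in CHLA-266 from 3904 to 2171 (log2 fold change -0.95, SE 0.25, adjusted *p* = 0.0186). *CNN2*, a calponin gene, was lower as well (-0.90, SE 0.16), while *FHL2*, a LIM protein gene (1.14, SE 0.32), and *ACTA2*, smooth muscle actin (1.09, SE 0.23), were higher. *TPM2*, a tropomyosin gene and the most abundant that did not pass, had a log2 fold change of 0.18, with ratios of opposite sign in the cell lines. With upper-quartile normalization, 4 genes of this list were higher and 1 was lower, against 4361 higher and 1895 lower of the 18066 genes tested.

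**Figure D4:**
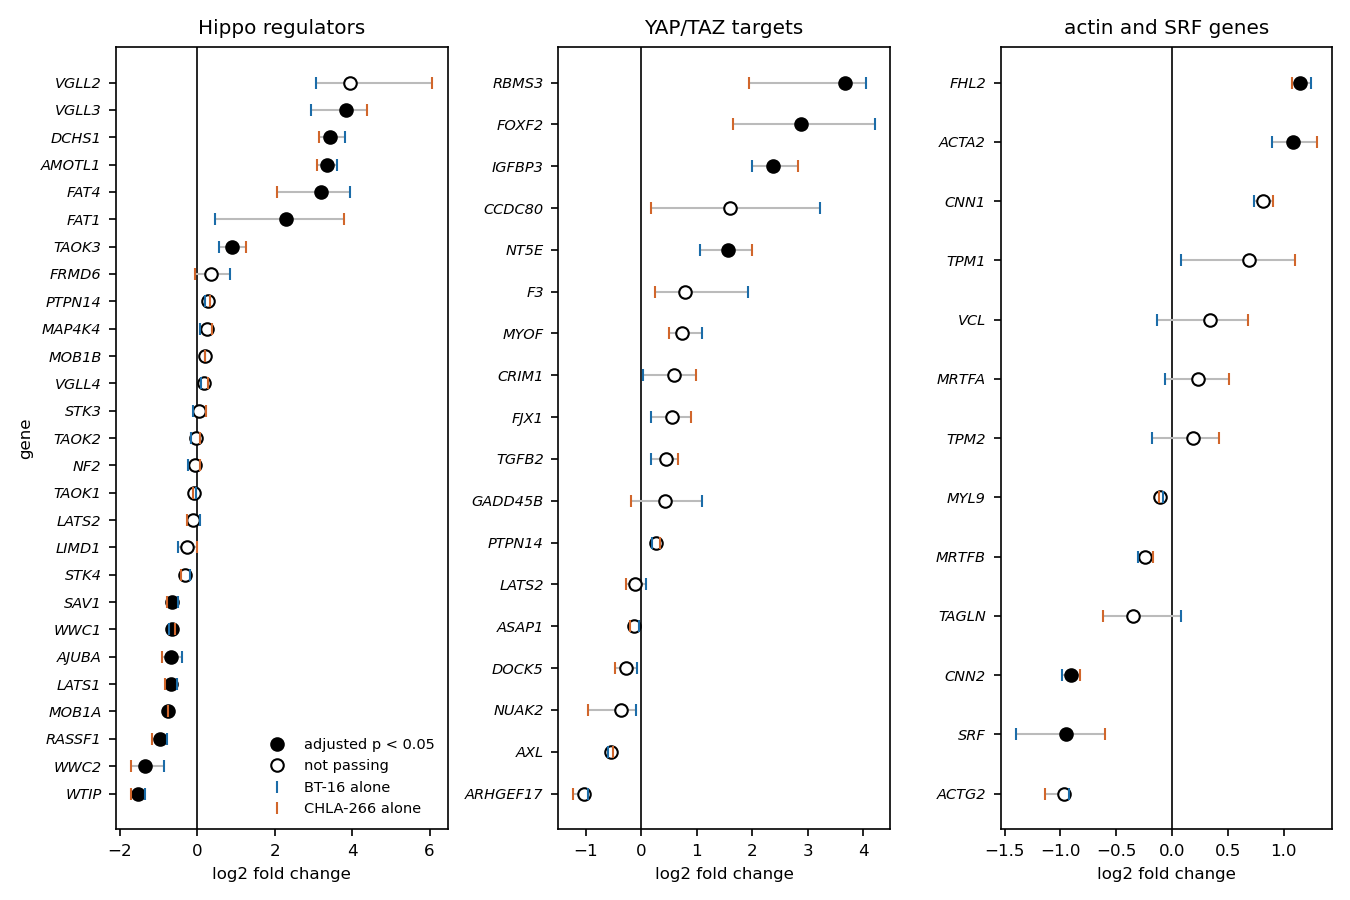
Log2 fold change of treated over untreated cells for the genes of 3 lists from edgeR (filled circles, adjusted *p* value under 0.05, open circles, not passing), with ticks for the log2 ratio in BT-16 (blue) and CHLA-266 (orange). Genes on either side of 0 pass in the lists of Hippo regulators and of actin and SRF genes, and the 4 targets that pass are all higher.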

How the data were processed

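RNA of 2 untreated and 2 treated AT/RT-MYC cell line libraries was prepared with the SMART-Seq Stranded kit. Per the study's methods and processing notes, reads were demultiplexed with bcl2fastq 2.20, trimmed, aligned to hg38 with STAR, and counted per gene, and repeated genes and genes of the sex chromosomes were removed. The deposited table holds estimated counts without normalization (5 values in 2 genes had decimals and were made whole). The log2 values the authors deposited come from the variance-stabilizing transformation (VST) of DESeq2 for 17553 genes. Low counts were mostly even (20.5% to 34.2% odd among counts of 1 to 20), as if each mate had been counted, so counting intervals are too narrow and cover counting error only.

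Symbols with a total of 0 (383) were left out, and 18066 genes were tested with edgeR 4.0.16 (quasi-likelihood, TMM, Benjamini-Hochberg) in R 4.3.3, with treatment as the only term. The standard error is the coefficient over the root of *F*. Cell lines were compared with treatment in the model. With treatment as the only term, P values measure the spread between cell lines. No libraries of separate cultures of 1 cell line were analysed. With treatment and cell line both in the model, they measure the spread that remains, including any difference in response between the cell lines. The libraries are paired by cell line. After each condition's mean was taken off, libraries of 1 cell line correlated at 0.256 over 12620 genes (genes are not replicates). Ratios within a cell line had 0.5 counts added. Exon lengths and positions come from GENCODE 44 (18357 symbols matched) and promoters from RefSeq. The tests were checked on simulated counts. Alternatives were a block for cell line, DESeq2 1.42.0, limma 3.58.1 on VST values, other scalings and filters, halved counts, and leaving out each library. The canonical transcript length was added after seeing the data.

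The 10 genes and the lists were chosen with earlier results of these data known. All 10 are named. In each list, the named genes are the 4 highest and 4 lowest log2 fold changes among genes past the threshold and of 1 direction in both cell lines, and the most abundant gene per length that did not pass. Further genes are said to be chosen after their values were seen.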

Additional observations from a re-analysis of the deposited data

Results flagged for a closer look

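With TMM scaling, 7 genes of the lists moved in opposite directions in the cell lines, with counting intervals on either side of 0. The share of all genes that meet this interval rule was not computed, so the 7 are not read as an excess. On the log2 scale, treated over untreated was, in BT-16 and CHLA-266, 1.10 and -0.18 for *GADD45B*, -0.13 and 0.68 for *VCL*, and -0.18 and 0.43 for *TPM2*. It was 0.08 and -0.28 for *LATS2*, -0.10 and 0.22 for *STK3*, -0.25 and 0.08 for *NF2*, and -0.17 and 0.07 for *TAOK2*. With all counts halved, since the intervals are too narrow, that of *LATS2* in BT-16 (-0.02 to 0.17) and that of *GADD45B* in CHLA-266 (-0.38 to 0.01) included 0. The difference between the cell lines was not tested. With DESeq2's size factors all 7 remained opposite, with library totals 2 (*GADD45B* and *LATS2*), and with upper-quartile scaling 0. None of the 10 YAP and TEAD pathway genes was opposite with TMM scaling. By sign alone, without the interval rule, 15.4% of all genes tested had ratios of opposite sign.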

How the results depend on the processing

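*WWTR1*, *TEAD4*, and *CCN2* kept direction and call in all 14 alternatives, and *ANKRD1* in all 13 that kept it. The cause of the changes below was not tested. Of the 10 genes, 3 were higher and 2 lower, against 5 higher with the cell line as a replicate block, and 5 higher and 1 lower with upper-quartile normalization and with library totals. With at least 10 counts in every library, which drops *ANKRD1*, 1 was lower. With 1 library left out, 3 to 4 were higher and 1 to 2 lower. Among the YAP/TAZ targets, 4 were higher and 0 lower, against 7 higher in DESeq2 with and without the block, 9 higher with upper-quartile normalization and with library totals, and 2 lower with the block. With 1 library left out, 1 to 6 were higher and 0 to 3 lower. The 1 came without untreated BT-16 cells, the 3 lower without treated BT-16 cells. Among the Hippo regulators, 6 were higher and 8 lower, against 10 higher and 2 lower with upper-quartile normalization, 3 lower with library totals, and 5 lower with at least 10 counts in every library. With 1 library left out, 4 to 7 were higher and 4 to 8 lower, with 4 without untreated CHLA-266 cells and 5 without untreated BT-16 or treated CHLA-266 cells. Of the actin and SRF genes, 4 were higher and 1 lower with upper-quartile normalization, and 1 to 5 higher and 2 lower with 1 library left out (1 without untreated BT-16 or treated CHLA-266 cells, 5 without treated BT-16 cells). In edgeR, the block added *TEAD1* and *TEAD3* and lost no call of the 10 genes. In DESeq2, *TEAD3* passed without the block (adjusted *p* = 0.0476) and not with it (0.102). *TEAD2* (0.032) and *CCN1* (0.12) reversed with upper-quartile normalization, and in BT-16 *CCN1* reversed with library totals (0.035). Between the cell lines, 1 gene passed with DESeq2's size factors in edgeR, and the difference of *ANKRD1* reversed without treatment in the model (-0.35). There, 415 of all genes passed, against 680 with these size factors, 689 by library totals, 0 without treatment in the model, 130 and 161 after the filters (10 counts in every library and filterByExpr), and 61 in limma. Leaving out libraries was not run for the cell lines, since no residual degree of freedom remained. Of the 18066 genes tested, 2910 were higher and 3454 lower with TMM. These were 4361 and 1895 after upper-quartile normalization, and 3678 and 2353 by library totals. With at least 10 counts in every library, they were 2253 and 2553 of the 12620 genes kept. Over all genes, 45.7% of calls were higher with TMM, 69.7% after upper-quartile normalization, and 61.0% by library totals. The median log2 fold change was then 0.24, 0.59, and 0.46. With 1 library left out, the lone library of a condition is assumed to vary like the others. Over all genes tested, fewer were then called in each direction than with all 4 libraries. The counts of the lists with 1 library left out are therefore not read as particular to the lists. Depth limits *ANKRD1*, with 2 and 10 counts before treatment.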

Other observations

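Of 6 further genes of the CCN and muscle ankyrin repeat families, 2 were upregulated after treatment in edgeR, and the other 4 did not pass, where 16.1% of all genes were higher. *CCN3*, a secreted relative of *CCN1* and *CCN2*, had 8 counts before and 413 after treatment in BT-16, with 6 before and 165 after in CHLA-266 (5.57 on the log2 scale, SE 0.67, edgeR adjusted *p* = 0.000542). It lay above the 95th percentile of olfactory receptors in both treated libraries, with 158 and 63.1 counts per kilobase. *CCN5* had 0 counts in both untreated libraries and 50 and 54 in the treated ones, and treated cells were at least 20.6-fold higher against a floor of 3 counts per library. It did not lie above that percentile, with 10.0 and 10.8 counts per kilobase. *ANKRD23*, a relative of *ANKRD1*, went from 41 to 71 counts in BT-16 cells, and in CHLA-266 from 35 to 74, and did not pass (log2 fold change 1.19, adjusted *p* = 0.207 in edgeR).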
